A study of Homo sapiens with 16 samples.

Results

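H3K4me1 was mapped by CUT&Tag in BE2C, an established line of human neuroblastoma that carries MYCN amplification, under 2 control conditions in which KDM6B was neither silenced nor inhibited. The siCtrl cells received a control siRNA for 72 h and the DMSO cells received the solvent, 0.1% DMSO, for 72 h, with 2 libraries of each. These 4 libraries belong to a series of 16 in 8 groups, in which siCtrl was the reference for the knockdown with siKDM6B33 and DMSO was the reference for GSK-J4 at 2.5 µM, which inhibits the KDM6 demethylases. The study described its CUT&Tag replicates as biological. Control type and experiment changed together between the 2 conditions, so siRNA transfection, solvent, and any difference in cells or library preparation between the experiments cannot be told apart. The p-values compare these libraries only.

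The deposited broad regions, called islands, were joined over the 4 libraries where they overlapped, which gave 24200 merged regions over 128.2 Mb. A library counted as calling a region where 1 of its islands overlapped it. Regions were classed by the libraries that called them. There were 12723 regions called in all 4 libraries, 52.6% of the regions and 71.2% of their bases. A further 3561 were called in both siCtrl libraries and in neither DMSO library, and 888 in both DMSO libraries and in neither siCtrl library. The other 7028 regions had mixed patterns and were not analysed further as a group. The same rule applied to 20136 protein-coding genes, each taken with 5 kb on either side, gave 6372 genes called in all 4 libraries, 832 called only in siCtrl and 490 called only in DMSO.

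H3K4me1 is a single methyl group on lysine 4 of histone H3, written mainly by the KMT2C and KMT2D enzymes. It marks enhancers, the distal switches that activate genes from a distance, both when they are active and when they are held ready, and it also flanks active promoters. In neuroblastoma, enhancers of the adrenergic state are bound by a core set of transcription factors that includes HAND2, GATA3 and ISL1. Around CpG-rich promoters of developmental genes, H3K4 methylation can occur together with H3K27me3, the repressive mark written by PRC2, a state often called bivalent.

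The sequences that follow show what kind of DNA carried each class. Each is 161 bases of the hg19 plus strand centred on the summit of the strongest narrow peak of the region in the libraries that called it. Capitals mark the CpG dinucleotides. The first pair comes from the highest-scoring distal regions called in all 4 libraries outside the amplified MYCN interval, an intergenic domain whose nearest start is that of DNAJB8 (chr3:128145057-128145217) and an intron of ZMIZ1 (chr10:80938652-80938812), and holds 8 and 4 CpG.
DNAJB8 side, all 4: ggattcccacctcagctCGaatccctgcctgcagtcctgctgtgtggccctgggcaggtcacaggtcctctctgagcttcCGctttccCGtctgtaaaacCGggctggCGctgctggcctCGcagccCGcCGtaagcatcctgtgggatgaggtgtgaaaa
ZMIZ1 intron, all 4: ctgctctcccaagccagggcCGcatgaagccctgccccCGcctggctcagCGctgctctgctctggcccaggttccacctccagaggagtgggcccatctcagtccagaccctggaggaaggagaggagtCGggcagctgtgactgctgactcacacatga
The next pair comes from introns of IPPK (chr9:95412776-95412936) and SYNE3 (chr14:95949430-95949590), the highest-scoring regions called only in siCtrl, and holds 0 and 3 CpG.
IPPK intron, siCtrl only: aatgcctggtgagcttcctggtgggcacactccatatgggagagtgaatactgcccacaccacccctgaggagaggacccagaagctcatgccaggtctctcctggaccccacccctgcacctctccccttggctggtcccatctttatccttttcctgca
SYNE3 intron, siCtrl only: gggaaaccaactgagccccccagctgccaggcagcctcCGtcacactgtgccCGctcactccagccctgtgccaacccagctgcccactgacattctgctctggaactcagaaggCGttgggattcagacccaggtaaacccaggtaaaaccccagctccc
The last pair comes from regions called only in DMSO, an intron of LHX5 (chr12:113906418-113906578) and intergenic DNA beside HOXA9 (chr7:27200470-27200630), and holds 6 and 14 CpG.
LHX5 intron, DMSO only: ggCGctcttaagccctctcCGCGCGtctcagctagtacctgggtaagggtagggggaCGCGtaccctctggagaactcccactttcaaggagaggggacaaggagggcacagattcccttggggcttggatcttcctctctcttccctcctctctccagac
HOXA9 side, DMSO only: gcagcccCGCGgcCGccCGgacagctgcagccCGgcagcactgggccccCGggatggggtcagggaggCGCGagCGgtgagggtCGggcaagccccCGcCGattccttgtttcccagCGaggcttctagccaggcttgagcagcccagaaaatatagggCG
These examples are the highest-ranked of their class whose window overlaps no annotated exon, which passed over BARX1 in the DMSO-only class, and the class medians of CpG content are given with the composition of the classes.

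Depth differed between the controls and bears on every count. Islands numbered 21534 and 21698 in siCtrl and 18779 and 17764 in DMSO. They covered 103.0 and 98.6 Mb in siCtrl and 77.7 and 68.0 Mb in DMSO. The covered length was 100.8 Mb ± 3.10 in siCtrl and 72.8 Mb ± 6.85 in DMSO (SD, n = 2 each). Both siCtrl values lay above both DMSO values, and the exact two-sided permutation test gave p = 0.333, the smallest value that 2 libraries against 2 can give. The genome background recovered from the narrow peaks, which rises in proportion to the number of tags, was 0.0902 and 0.0849 tags per base in siCtrl against 0.0569 and 0.0483 in DMSO, a ratio of the means of 1.66. The longer siCtrl lists therefore came from the deeper libraries, and the part of depth in them was not tested.

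The reproducible map was large and mostly distal. Regions called in all 4 libraries had a median width of 5400 bp and summed to 91.3 Mb, and 9232 of them, 72.6%, held no protein-coding transcription start within 1 kb, which is what distal means here. By their centres, 55.1% lay in introns, 36.9% between genes and 7.96% in exons. Long domains were almost all in this class: 967 of its regions spanned 15 kb or more, against 0 of those called only in siCtrl and 14 of those called only in DMSO. The bases covered in every one of the 4 libraries came to 52.1 Mb, which was 50.6% and 52.8% of the covered length of the siCtrl libraries and 67.1% and 76.6% of that of the DMSO libraries. Of these bases 88.4% were more than 1 kb from a start, compared with 98.3% of the genome. H3K4me1 thus stood mainly away from starts in absolute length while the neighbourhood of starts held more of it than its share of the genome.

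**Figure D1:**
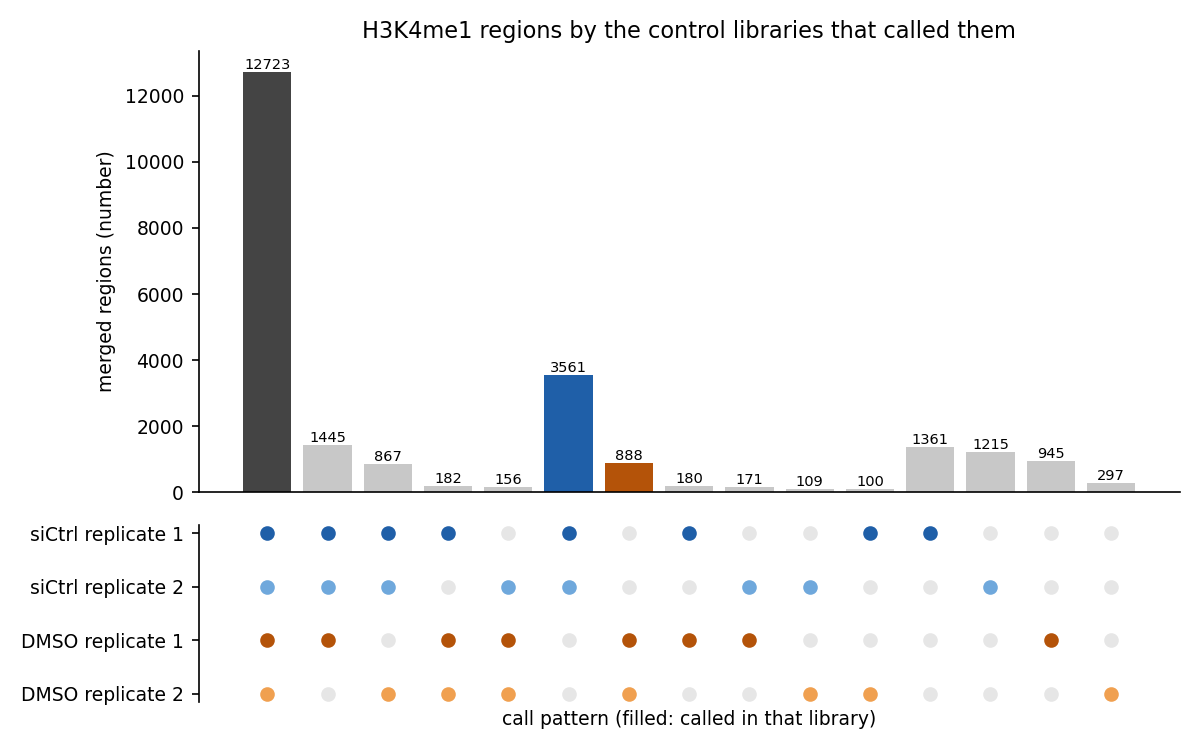
Number of merged H3K4me1 regions (vertical axis) for each pattern of calls over the 4 control libraries, with filled circles under each bar for the libraries that called it. The pattern of all 4 libraries held 12723 regions, both siCtrl libraries alone 3561 and both DMSO libraries alone 888, while each of the 4 patterns with 1 library of each control held 100 to 180.

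Agreement within each control was higher than between them. Islands of the siCtrl pair shared 0.727 of their combined length (Jaccard index) and those of the DMSO pair 0.665, while the 4 pairs across controls shared 0.546 to 0.579. Regions called in exactly 1 library of each control numbered 560 over 4 patterns, or 140 per pattern. Single libraries gave 1361 and 1215 regions in siCtrl and 945 and 297 in DMSO. Regions missed by 1 library only were mostly missed by a DMSO library, 1445 by replicate 2 and 867 by replicate 1, against 182 and 156 missed by siCtrl replicates 2 and 1.

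The 2 classes of control-specific regions depended on list length, and their order turned at equal covered length. With the same number of islands in each library, highest scores first, 1941 regions were called only in siCtrl and 1215 only in DMSO. With the same covered length in each library, 68.0 Mb, 173 were called only in siCtrl and 2988 only in DMSO. Equal length kept 9590 and 10479 islands of the siCtrl libraries and 14362 and 17764 of the DMSO libraries, the last being the whole list of DMSO replicate 2. Highest scores were kept first here too, and scores rise with width. The siCtrl lists were thus cut most, and to their higher-scoring islands, which bears on every value at equal covered length. Leaving out DMSO replicate 2, the shallowest library, raised the DMSO-only count to 1849. Which control held more regions of its own is therefore not given by these lists. The distal share was higher for siCtrl only and the H3K27me3 share higher for DMSO only in all 4 settings in which they were computed, although DMSO-only regions went from mostly promoter to mostly distal (60.8%) at equal covered length. The other properties described next were computed for the reported lists alone.

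**Figure D2:**
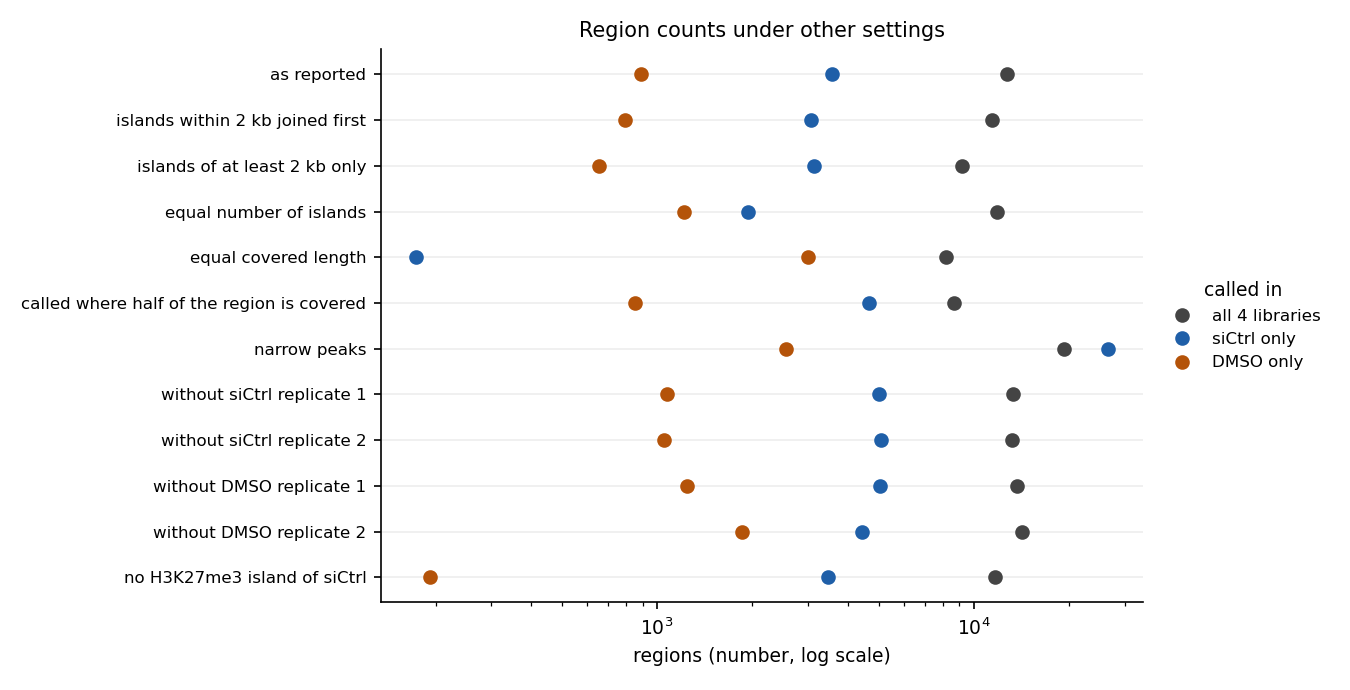
Number of regions in each class (log axis) as reported and under each alternative setting, with 1 point per class. The count called in all 4 libraries lay between 8180 and 19244, whereas the siCtrl-only and DMSO-only counts changed places at equal covered length (173 and 2988).

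Regions called only in siCtrl were distal, short and weak. Of the 3561, 2929 (82.3%) held no start within 1 kb, and their median width was 3000 bp. Their median island score, a sum over windows that grows with width and depth, was 108 and 102 in the siCtrl libraries, about 1.52 times the lowest score in either list, where regions called in all 4 stood at 5.27 and 5.20 times. Weak signal was also present in the other control: 47.2% and 41.4% of them held a narrow peak in DMSO replicates 1 and 2. Most lay near an established region, with a median distance of 24.4 kb to the nearest region called in all 4. Median GC content was 48.1%, and the CpG observed over expected ratio was 0.231, both below the 51.1% and 0.260 of regions called in all 4.

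The 10 highest-scoring regions called only in siCtrl stood in or near IPPK, SYNE3, LBR, TNFAIP2, TSPO, GPT2, CALML3, PRKCE, UBAP1 and DDX41. In the intron of IPPK, which encodes an inositol phosphate kinase, a 4.6-kb region (chr9:95410001-95414600) scored 588 and 614 in siCtrl and was not called in DMSO, although its strongest narrow peak was 9.85-fold and 11.7-fold over background in siCtrl and 5.33-fold and 7.28-fold in DMSO. Signal at this intron was thus present in every control library and was called broad in siCtrl alone. LBR encodes the lamin B receptor of the nuclear envelope, and the region in its intron (chr1:225594001-225598400) scored 503 and 339 with narrow peaks of 15.9-fold and 14.3-fold in siCtrl and of 7.21-fold and 5.41-fold in DMSO. Beside TNFAIP2, a 2.8-kb intergenic region (chr14:103621001-103623800) with peaks of 17.1-fold and 17.2-fold in siCtrl held no narrow peak in either DMSO library. All 10 overlapped no H3K27me3 island in the siCtrl or DMSO libraries.

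Regions called only in DMSO were a different kind of DNA. Of the 888, 512 (57.7%) held a start within 1 kb and 376 were distal. Their median GC content was 57.7% and the CpG observed over expected ratio was 0.566, above the values of the other 2 classes. They lay far from the common map, at a median of 115.6 kb from the nearest region called in all 4. The median score was 2.13 times the lowest score of the list in DMSO replicate 1 and 1.44 times in replicate 2, so replicate 2 gave the weaker support. Narrow peaks were found in 59.1% and 56.8% of them in the siCtrl libraries, with a median fold of 4.42 and 4.31 among those that had one.

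These regions coincided with H3K27me3, a readout that the classes did not use. Of the regions called only in DMSO, 77.6% and 78.3% overlapped an H3K27me3 island in siCtrl replicates 1 and 2, and 75.9% and 76.2% in the DMSO replicates. Among those at promoters the share was 92.8% and 93.6% in siCtrl. For regions called only in siCtrl it was 2.25% and 1.97% in siCtrl and 0.927% and 0.955% in DMSO. Over all merged regions, 10.5% overlapped H3K27me3 in both siCtrl libraries. These are counts over regions, which are not replicates, and no test over regions was made.

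Where they overlapped, they lay inside the H3K27me3 domains: 688 DMSO-only regions overlapped H3K27me3 in both siCtrl libraries, and the islands covered 98.8% of such a region on average. Of these, 69.0% were at promoters, with a median GC of 58.6% and a CpG observed over expected ratio of 0.612. The 192 that overlapped no siCtrl H3K27me3 island resembled the siCtrl-only class instead, with 17.2% at promoters, a GC of 49.4% and a ratio of 0.218. Within regions called in all 4 libraries, 927 (7.29%) overlapped H3K27me3 in both siCtrl libraries and 66.7% of those were at promoters, against 23.9% of the 11638 that overlapped it in neither. The contrast in H3K27me3 was present under equal number of islands (63.7% of DMSO-only and 1.60% of siCtrl-only regions) and at equal covered length (31.9% and 1.16%), though it was smaller in the latter. Distal shares at equal covered length were 60.8% for DMSO only and 88.4% for siCtrl only.

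**Figure D3:**
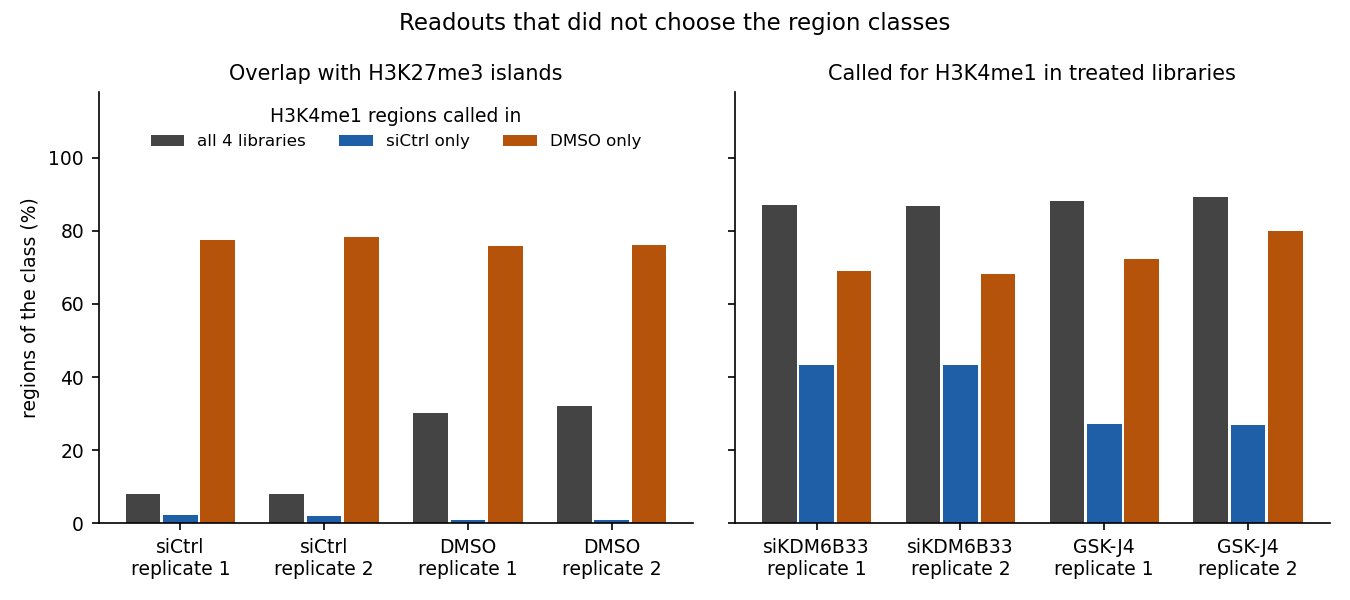
Percent of each class of H3K4me1 regions that overlapped an H3K27me3 island in each control library (left) and that was called for H3K4me1 in each treated library (right), with 1 bar per class and library. DMSO-only regions overlapped H3K27me3 at 75.9% to 78.3% in the 4 control libraries and siCtrl-only regions at 0.927% to 2.25%, while the regions called in all 4 were called in 86.8% to 89.4% of cases in the treated libraries.

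Without classes, the islands of each mark were also compared per library. Islands of siCtrl replicate 1 H3K27me3 were covered by H3K4me1 islands over 9.03% of their bases in both siCtrl libraries and over 18.5% and 13.3% in DMSO replicates 1 and 2. Both DMSO values lay above both siCtrl values (exact two-sided permutation test, p = 0.333, the smallest possible), although the DMSO lists were shorter. The bases of siCtrl replicate 2 and DMSO replicate 1 H3K27me3 islands gave the same order, and those of DMSO replicate 2 did not, with 50.1% and 49.7% in siCtrl and 55.9% and 50.1% in DMSO (exact two-sided permutation test, p = 0.667). The 2 marks were also less separate in the compound experiment in the other direction. Regions called in all 4 overlapped H3K27me3 islands at 7.91% in each siCtrl library and at 30.2% and 32.1% in the DMSO libraries. The 10 top distal regions of the common map were covered by H3K27me3 islands over 65.6% to 97.7% of their length in DMSO cells and over 0% to 3.95% in siCtrl cells. The part of that shared signal in the DMSO-only H3K4me1 calls was not tested.

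The 10 highest-scoring regions called only in DMSO stood at LHX5, BARX1, HOXA9, UNCX, OSR1, NKX2-2, FOXF2, HOXB3, LHX6 and OLIG2, genes of transcription factors that pattern the embryo. LHX5, a LIM homeobox factor of the developing forebrain, lay in a 19.2-kb region (chr12:113900001-113919200) that scored 1435 and 699 in DMSO and was not called in siCtrl, where no narrow peak was found in replicate 1 and one of 3.45-fold in replicate 2. At HOXA9, a homeobox factor of the body axis, the region (chr7:27189801-27216600) spanned 26.8 kb and scored 1091 and 488. OLIG2, a basic helix-loop-helix factor of motor neurons and oligodendrocytes, had a region of 18.6 kb (chr21:34390401-34409000) that scored 685 and 405. Narrow peaks did not always follow the broad calls: NKX2-2 had peaks of 6.19-fold and 6.94-fold in siCtrl and of 5.39-fold and 4.14-fold in DMSO, and UNCX one of 6.66-fold in siCtrl replicate 1 and of 5.57-fold and 5.21-fold in DMSO. All 10 were covered over 100% of their length by H3K27me3 islands in each siCtrl and each DMSO library. Replicate 1 scored higher than replicate 2 at each of them.

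Treated H3K4me1 libraries, which the classes did not use either, called the common map again. Of the regions called in all 4 controls, 87.1% and 86.8% were called after siKDM6B33 and 88.1% and 89.4% after GSK-J4, and 217 (1.71%) were called in no treated library. Regions called only in siCtrl were called in 43.3% and 43.2% of cases after siKDM6B33 and in 27.01% and 26.93% after GSK-J4, and 33.1% of them in no treated library. DMSO-only regions were called in 69.0% and 68.1% of cases after siKDM6B33, in the same experiment as siCtrl, and in 72.41% and 79.95% after GSK-J4. Their promoter members were called in 86.7% and 86.1% after siKDM6B33, their distal members in 44.9% and 43.6%. For siCtrl-only regions the shares were 84.5% and 85.0% at promoters and 34.4% and 34.2% at distal sites. After GSK-J4 the promoters of the 2 classes stood apart, at 75.0% and 83.4% for DMSO only and at 19.6% and 20.3% for siCtrl only. Of the 10 top regions, all but that of UNCX were called in both siKDM6B33 libraries. The siKDM6B33 libraries were the deepest of the H3K4me1 set, with a background of 0.107 and 0.105 tags per base.

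Sequence at the peak summits differed between the classes as their CpG content did. In windows of 401 bp at the strongest summit of each region, the median number of CpG was 6 for distal and 15 for promoter regions called in all 4, 4 and 19 for siCtrl only, and 11 and 32 for DMSO only. The E-box CAGCTG, a motif of basic helix-loop-helix factors, was found on either strand in 33.7% of distal windows of the common map and in 20.1% of windows moved by 2 kb. It was found in 32.4% and 18.0% for distal siCtrl-only regions and in 28.4% and 14.7% for distal DMSO-only regions. The GATA motif AGATAA was found in 23.2% at the summit and 20.6% when moved for the common distal map, in 28.0% and 21.9% for distal siCtrl-only regions, and in 14.8% and 19.7% for distal DMSO-only regions. At promoters called only in DMSO the GC box GGGCGG, a motif of SP factors, was found in 67.9% of windows against 16.7% when moved, while AGATAA was found in 5.58% against 18.6%. Promoters of the other classes had the same directions, with the GC box in 51.6% against 21.0% for all 4 and in 51.8% against 14.6% for siCtrl only, and AGATAA in 9.93% against 16.2% and in 10.3% against 20.0%. These matches count letters in a window, and CpG-rich windows favour a GC box by composition.

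The strongest distal domains of the common map were ranked by mean score over the 4 libraries, in which the larger siCtrl scores weigh more. Chromosome 2 from 16000000 to 17000000, the interval around amplified MYCN, was set apart, because signal there cannot be told apart from copy number, which was not measured. H3K27me3 islands covered 93.3% or more of each of its 4 common regions. Outside it, the top region was an intergenic domain of 50.0 kb (chr3:128105801-128155800) whose nearest start, that of the chaperone gene DNAJB8, was 54.9 kb from its centre. It scored 52147 and 48707 in siCtrl and 19708 and 17217 in DMSO. An intron of ZMIZ1, a transcriptional coactivator of the PIAS family, held the next (chr10:80882001-80958200, 76.2 kb), scoring 40842 and 38368 in siCtrl and 17776 and 16008 in DMSO. All 10 scored higher in both siCtrl libraries than in both DMSO libraries. Fold enrichment at their strongest narrow peak showed no such common order. It was higher in siCtrl at DNAJB8, PPARA, PPIF and CDK5RAP3, higher in DMSO at ZMIZ1 and GSE1, and overlapped at the other 4. For ZMIZ1 it was 10.9 and 11.5 in siCtrl and 11.7 in both DMSO libraries. Each of the 10 was covered over 82.9% or more in each control library.

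RET, the receptor of GDNF family ligands and a kinase of the sympathetic lineage, had one of the 10, a 25.6-kb intergenic domain (chr10:43463401-43489000) centred 96.3 kb from its start. It scored 25150 and 24402 in siCtrl and 10754 and 9952 in DMSO. The others stood nearest PPARA, GSE1, PPIF (inside an intron of ZMIZ1), UNC5B, STPG4, ZC3H3 and CDK5RAP3. UNC5B encodes a netrin receptor of axon guidance, and the domain in its intron spanned 65.0 kb (chr10:72986601-73051600). By number of distal regions of the common map to which a gene had the nearest start, CADM1, a cell adhesion gene, led with 24, then TLE3, a transcriptional corepressor, with 23. AUTS2, BCOR and KIF26B had 22 each. The 17 distal regions nearest ZMIZ1 summed to 234.8 kb, the largest sum among the 25 genes with the most such regions. SOX9, a neural crest factor whose own gene is 5.397 kb long, had 16, which lay mostly outside the gene.

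The adrenergic core regulators, the list that defines this cell state, were marked in both controls. Of 20 listed genes, 19 were called in all 4 libraries, against 31.6% of all genes, and the remaining one, SOX11, was called only in DMSO. Every one of the 20 had the nearest start to at least 1 distal region of the common map, 79 in all, against 4006 of all 20136 genes. The median percent of the gene with its flanks covered by islands was 54.5% and 49.2% in siCtrl and 38.8% and 34.8% in DMSO. The values of the 2 controls did not overlap for 15 of them, 12 higher in siCtrl and 3 higher in DMSO. Over all genes, siCtrl was higher without overlap for 25.7% and DMSO for 4.30%, with the rest overlapping or uncovered. A higher siCtrl coverage was thus the more common direction. It was less so among genes that overlapped H3K27me3 in both siCtrl libraries, with 865 higher in siCtrl and 704 in DMSO. The 51.7% of genes called in no control library could be neither, which lowers both shares of all genes.

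MYCN, the amplified oncogene, was covered over 95.6% in each of the 4 libraries, and H3K27me3 islands covered it to the same extent, so neither mark can be told apart from copy number there. HAND1, a basic helix-loop-helix factor of the sympathetic and cardiac lineages, was covered over 100% and 90.9% in siCtrl and 100% and 89.4% in DMSO, values that overlapped. The T-box factor gene TBX2 was covered over 100% in both siCtrl libraries and over 95.9% and 73.5% in DMSO. GATA3, a zinc finger factor of sympathetic neurons, was covered over 77.8% and 68.8% in siCtrl and 37.7% and 35.7% in DMSO. Its groups were far apart, and they stayed so at equal covered length (77.8% and 56.8% against 37.7% and 35.7%). ISL1, a LIM homeobox factor, was covered over 70.9% and 73.1% in siCtrl and 44.9% and 54.3% in DMSO. At equal covered length its groups met, with 59.0% and 54.3% against 44.9% and 54.3%.

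HAND2, a basic helix-loop-helix factor that specifies sympathetic neurons, had most of its marked DNA outside the gene. It was covered over 43.8% and 32.0% in siCtrl and 28.1% and 32.0% in DMSO, so the groups met. It was the nearest gene to 5 distal regions of the common map and to 2 distal regions called only in siCtrl. The widest spanned 12.8 kb (chr4:174435001-174447800) at 3.58 kb from a start of the gene, and scored 783 and 892 in siCtrl and 629 and 501 in DMSO. The highest folds lay far away: a 3.0-kb region at 234.8 kb from the start (chr4:174686201-174689200) had peaks of 21.6-fold and 20.4-fold in siCtrl and 8.46-fold and 8.41-fold in DMSO. A 3.8-kb region at 303.6 kb (chr4:174755001-174758800) had peaks of 19.8-fold and 15.5-fold in siCtrl and 11.7-fold and 10.0-fold in DMSO. In both distant regions the siCtrl values stood above the DMSO values, no H3K27me3 island overlapped them in any control library, and all 4 treated H3K4me1 libraries called them.

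SOX11 and INSM1 were among the adrenergic genes higher in DMSO. SOX11, a neuronal SOX factor, was covered over 0% in both siCtrl libraries and over 28.4% and 15.8% in DMSO. A DMSO-only region of 3.8 kb spanned its start (chr2:5830601-5834400) and was covered fully by H3K27me3 islands in all 4 control libraries of that mark. No narrow peak lay in it in either DMSO library, while siCtrl replicate 2 had one of 5.61-fold, so broad and narrow calls did not give the same order there. INSM1, a zinc finger factor of neuroendocrine cells, was covered over 12.9% and 5.08% in siCtrl and 39.3% and 23.8% in DMSO, with a DMSO-only region at its start (chr20:20347201-20350600). H3K27me3 islands covered 42.1% and 45.3% of SOX11 and 21.8% and 26.5% of INSM1 in siCtrl cells. Among the 20, 5 overlapped H3K27me3 in both siCtrl libraries, including MYCN and LMO1, a share close to the 21.5% of all genes. Others overlapped it in DMSO cells alone. H3K27me3 islands covered HAND1 over 98.6% and 92.5% and TBX2 over 70.4% and 82.7% in DMSO, with 0% in siCtrl. ISL1, EYA1 and DACH1 were at 0% in each control library of that mark.

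**Figure D4:**
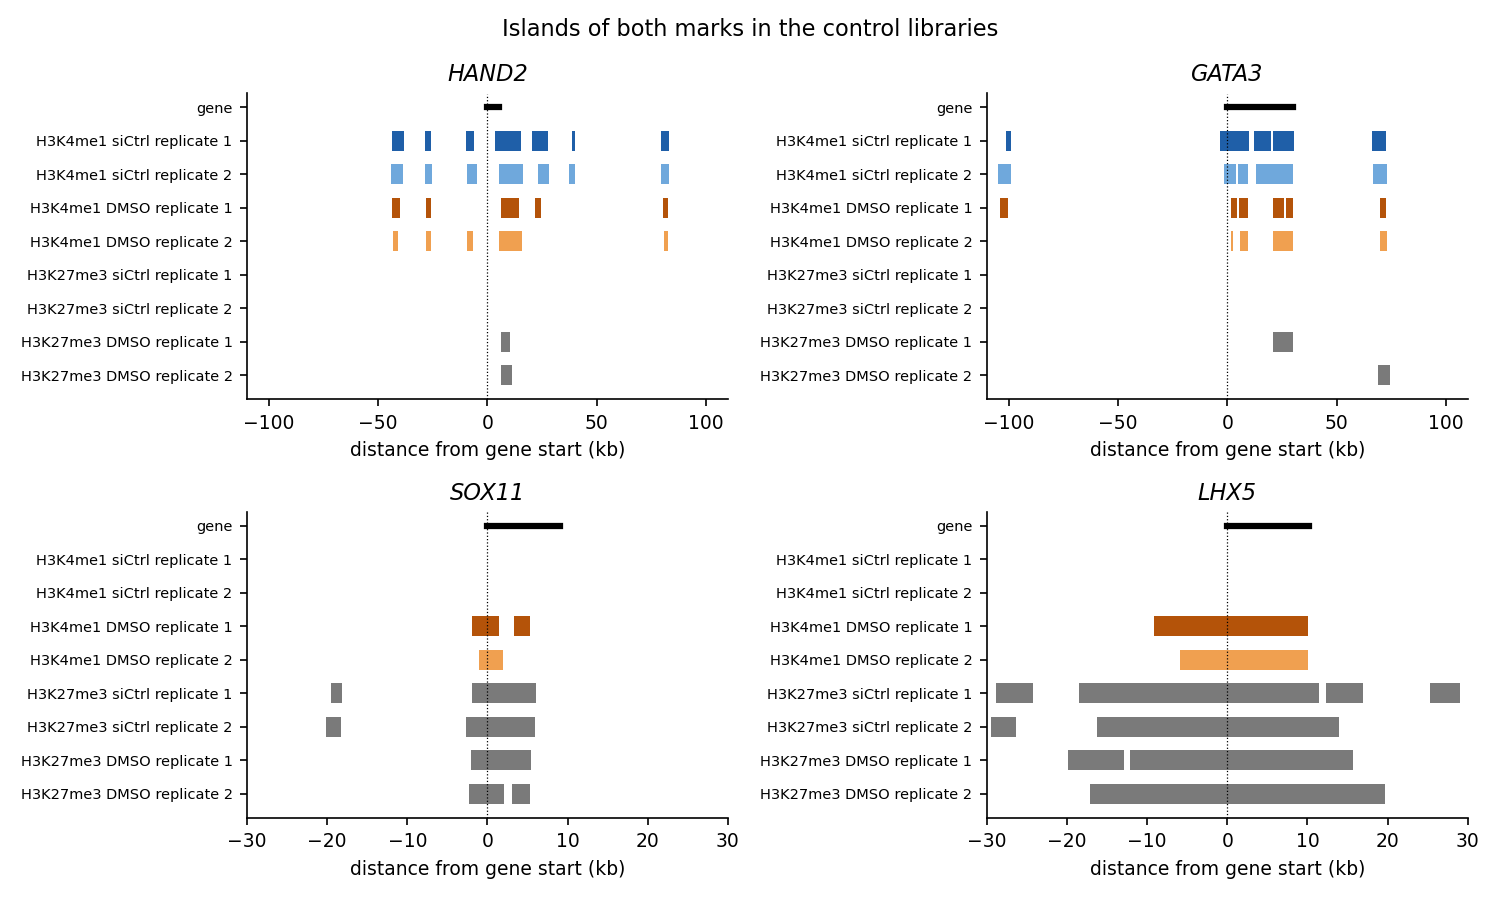
Islands of H3K4me1 (coloured) and H3K27me3 (grey) in each control library around HAND2, GATA3, SOX11 and LHX5, by distance from the gene start in kb in the direction of transcription, with the gene as a black bar. Around HAND2 and GATA3 most H3K4me1 islands recur in all 4 libraries, and around SOX11 and LHX5 they appear in DMSO alone, inside H3K27me3 islands present in all 4 libraries of that mark.

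The genes of the noradrenergic product were marked in both controls. Of 16 genes of catecholamine synthesis, storage and granules, 13 were called in all 4 libraries and 3 (CARTPT, NPY and SYT4) in none, against 31.6% and 51.7% of all genes. Values were higher in siCtrl without overlap for 10 and in DMSO for 0, against 25.7% and 4.30% of all genes. TH, the rate-limiting enzyme of catecholamine synthesis, was covered over 100% in each library. H3K27me3 islands covered TH over 100% in both DMSO libraries and over 0% in both siCtrl libraries. DBH, which converts dopamine to noradrenaline, was covered over 76.3% and 84.2% in siCtrl and 64.8% and 61.2% in DMSO. GCH1, which makes the cofactor of TH, was at 20.3% and 19.8% against 2.82% and 3.95%, and at equal covered length at 6.78% and 7.63% against 0% and 3.95%. DDC, the decarboxylase between TH and DBH, was at 48.4% and 50.1% against 22.9% and 23.3%, and at equal covered length at 34.9% and 39.0% against 20.9% and 23.3%.

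Receptor and signalling genes of neuroblastoma were called in all 4 libraries for 11 of 16 and in none for 1, against 31.6% and 51.7% of all genes. Their median length was 83.8 kb against 27.2 kb over all genes, and the part of length in these shares was not tested. Values were higher in siCtrl without overlap for 8 and in DMSO for 1, NTRK3, against 25.7% and 4.30% of all genes. CCND1, the D-type cyclin that partners CDK4 and CDK6, was covered over 95.5% and 93.8% in siCtrl and 85.4% and 72.9% in DMSO, and its groups overlapped at equal covered length (81.5% and 93.8% in siCtrl). ALK, the receptor kinase mutated in familial neuroblastoma, was covered over 14.8% and 14.7% against 12.6% and 12.1%, and at equal covered length over 12.7% and 12.6% against 12.1% in both DMSO libraries. The gene is 728.8 kb long, and 14 distal regions of the common map, 106.2 kb in all, lay nearest to an ALK start, most of them in its introns. One of these, a 16.0-kb intronic domain (chr2:29483201-29499200), scored 4285 and 4579 in siCtrl and 2058 and 1857 in DMSO. KDM6B itself, the demethylase targeted in the treated arms, was covered over 67.4% and 70.0% in siCtrl and 65.4% and 63.4% in DMSO, close values that overlapped at equal covered length (58.2% and 70.0% in siCtrl). H3K27me3 islands covered KDM6B over 33.4% and 54.9% in DMSO and over 0% in both siCtrl libraries.

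The mesenchymal state list, which marks the alternative neuroblastoma state, was split by control. Of 20 genes, 7 were called in all 4 libraries (35.0%, against 31.6% of all genes), 5 only in DMSO, 1 only in siCtrl and 5 in none. H3K27me3 islands of both siCtrl libraries overlapped 12. Over all genes, 2.43% were called only in DMSO, 4.13% only in siCtrl, 51.7% in none, and 21.5% overlapped H3K27me3 in both siCtrl libraries. Values were higher in siCtrl without overlap for 5 and in DMSO for 7, against 25.7% and 4.30% of all genes. The 5 called only in DMSO were PRRX1, TWIST2, TBX18, YAP1 and RUNX1, with 0% in both siCtrl libraries and up to 12.5% in DMSO. PRRX1, a homeobox factor that drives the mesenchymal state, was at 12.5% and 7.38% in DMSO, and RUNX1 at 0.277% and 0.310%. SNAI2, a repressor of epithelial genes, ran in the common direction, with 31.1% and 53.7% in siCtrl and 17.0% and 12.7% in DMSO. FOSL1, an AP-1 subunit, was higher in DMSO at 48.6% and 45.3% against 37.1% in both siCtrl libraries, and H3K27me3 islands covered 51.0% or more of it.

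In the neural crest and Schwann cell precursor list, 5 of 10 were called in all 4 libraries and 3, with SOX10 and S100B of Schwann cells among them, in none, against 31.6% and 51.7% of all genes. TFAP2A, an AP-2 factor of neural crest, was called only in DMSO, at 34.2% and 19.7% of the gene, where H3K27me3 islands covered 88.5% and 75.9% in siCtrl cells. SOX9 was higher in siCtrl, with 67.5% and 71.4% against 49.4% and 27.3%. PAX3, a paired-box factor of neural crest, was at 5.87% and 3.48% against 12.4% and 10.7%. FOXD3 was covered over 0% and 41.4% in siCtrl and 55.4% and 23.6% in DMSO, values that overlapped.

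**Figure D5:**
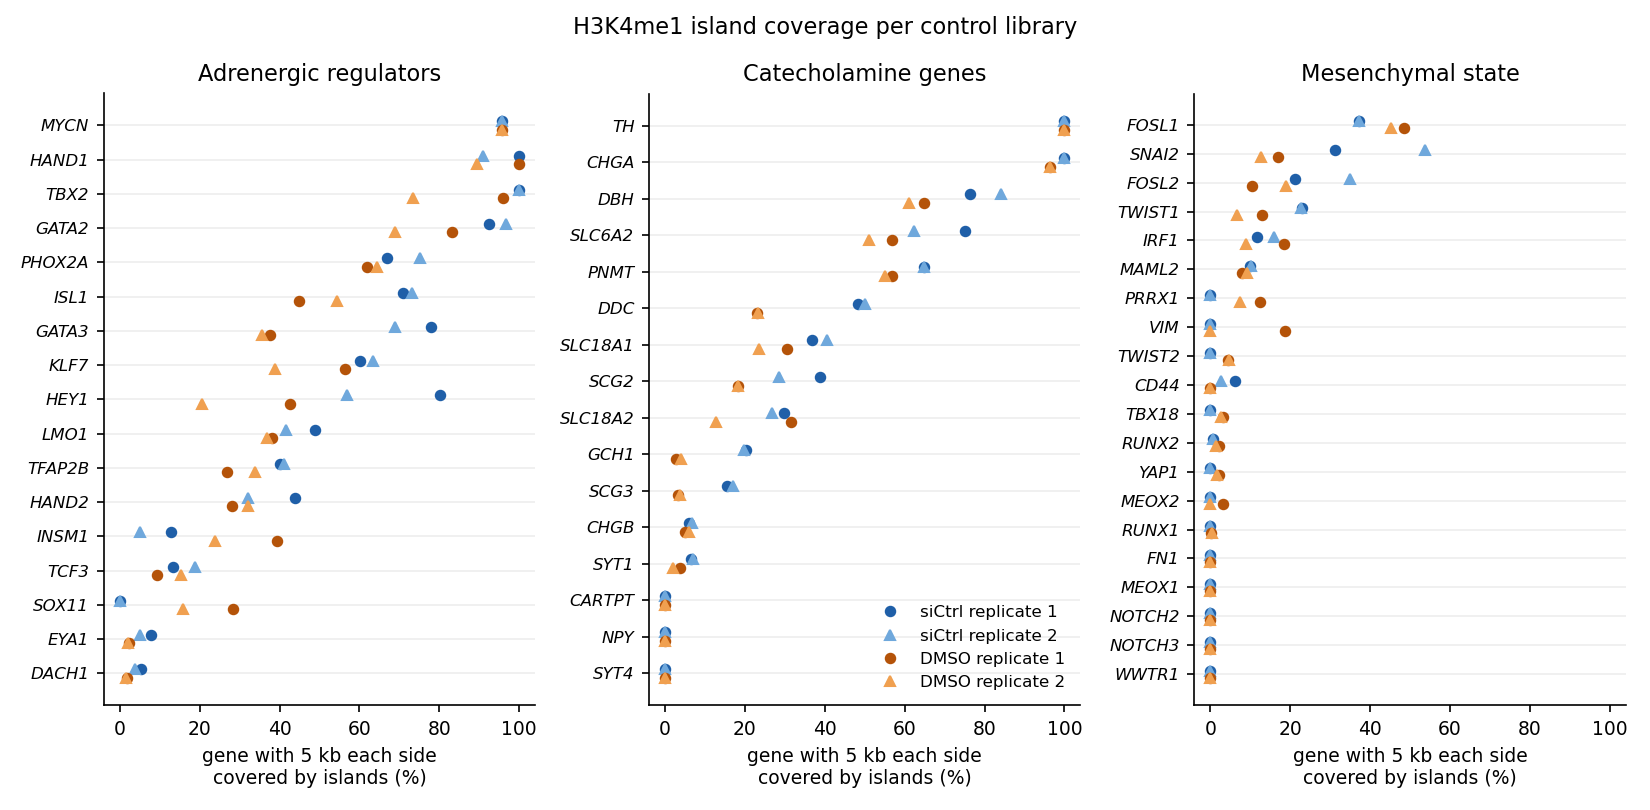
Percent of each gene with 5 kb on either side covered by H3K4me1 islands, with 1 point per control library, for genes of the adrenergic, catecholamine and mesenchymal lists. Most adrenergic and catecholamine genes lie above 10% with siCtrl to the right of DMSO, whereas SOX11, INSM1, PRRX1 and FOSL1 lie further right in DMSO.

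Lists chosen for what a control treatment might do to cells were higher in siCtrl, the common direction, wherever their groups did not overlap. Of 20 genes of the interferon and double-stranded RNA response, 6 were called in all 4 libraries, near the 31.6% of all genes, and 10 in none, with 3 higher in siCtrl without overlap and 0 in DMSO, against 25.7% and 4.30% of all genes. IFIT3, an interferon-induced gene, was covered over 3.66% and 3.99% in siCtrl and 0% in DMSO, and over 0% in each at equal covered length. The sterol synthesis and uptake list had 10 of 12 called in all 4 and 0 in none, against 31.6% and 51.7% of all genes. In siCtrl 8 of them were higher without overlap, against 25.7% of all genes. SCD, the stearoyl-CoA desaturase, was at 44.2% and 31.2% in siCtrl and 0% and 7.97% in DMSO, and at equal covered length at 25.4% and 21.7% in siCtrl. Oxidative and xenobiotic stress genes were called in all 4 for 4 of 14, integrated stress response genes for 6 of 10, and genes of the RNA interference machinery for 4 of 10. No member of these 5 lists was higher in DMSO without overlap, as 4.30% of all genes were.

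Among the remaining lists, axon guidance genes were called in all 4 libraries for 14 of 20, against 31.6% of all genes. Values were higher in siCtrl without overlap for 11 and in DMSO for 0, against 25.7% and 4.30% of all genes. These genes are long, with a median of 359.8 kb against 27.2 kb over all genes. A single island anywhere in a gene or its flanks counts as a call, and the part of length in these shares was not tested. Of the 9232 distal regions of the common map, 95 lay nearest to a start of these genes, where length was not tested either. PLXNA4, a semaphorin coreceptor, had 17 of these and was covered over 34.7% and 33.6% in siCtrl and 23.5% and 19.5% in DMSO, and at equal covered length over 26.1% and 25.9% in siCtrl and 20.4% and 19.5% in DMSO. SLIT3, a ligand of Robo receptors, was covered over 47.2% and 42.2% against 35.4% and 31.4%, and at equal covered length over 37.3% and 35.9% against 34.7% and 31.4%. E2F target genes of the cell cycle were called in all 4 for 8 of 20, with 6 higher in siCtrl, and the H3K4 and H3K27 methylation machinery for 5 of 16, with 5 higher in siCtrl. These shares lay near the 31.6% and 25.7% of all genes. E2F1, the founding E2F factor, was covered over 81.3% and 75.2% against 56.4% and 70.8%. No H3K4me1 island was called in any control library over CDK1, BUB1, EZH2's partners EED and SUZ12, or the H3K4 methylase genes KMT2A and KMT2C. The same held for 51.7% of all genes. In the deeper siKDM6B33 libraries, islands covered CDK1 over 20.4% and 23.4%, EED over 7.99% and 7.53% and KMT2C over 2.69% and 1.48%. BUB1, SUZ12 and KMT2A stayed at 0% there.

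Markers of other cell types were called in all 4 libraries for 1 to 4 genes of 10 in each list, against 31.6% of all genes. Of 10 genes each, 2 hepatocyte, 1 haematopoietic, 3 epithelial, 3 muscle and 4 fibroblast genes were called in all 4 libraries. The median coverage of these lists was 0% in each library except for fibroblast genes in siCtrl replicate 2 (0.759%) and muscle genes in DMSO replicate 2 (3.78%). Over all genes it was also 0% in each library. PTPRC, CD3E and HBB, which define blood cells, were at 0% in each library. SPI1, a factor of myeloid and B cells, was the haematopoietic gene called in all 4, at 14.8% and 9.47% in siCtrl and 16.6% and 8.31% in DMSO. MYOD1, the muscle determination factor, was called only in DMSO, at 33.4% and 36.6% with 0% in siCtrl, and H3K27me3 islands covered 61.1% and 68.4% of it in siCtrl cells. ESRP1, an epithelial splicing factor, followed the same pattern at 7.07% and 5.76%.

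Over all genes, most of those called only in DMSO lay under H3K27me3, although they were a small share of the 4323 genes under that mark. Of the 490, 450 (91.8%) overlapped an H3K27me3 island in both siCtrl libraries, compared with 24.6% of genes called in all 4, 10.3% of the 832 called only in siCtrl and 21.5% of all genes. Among genes whose coverage was higher in DMSO without overlap, 81.4% overlapped H3K27me3 in both siCtrl libraries, and among those higher in siCtrl, 16.7% did. In the treated libraries, 84.1% of the DMSO-only genes were called in both siKDM6B33 libraries and 70.4% in both GSK-J4 libraries. For siCtrl-only genes the shares were 85.0% and 18.9%, so they were seldom called in the compound experiment, where all 4 H3K4me1 libraries were shallow. At equal covered length, 61 genes were called only in siCtrl and 1307 only in DMSO. With 1 library left out, siCtrl-only genes numbered 1290 without DMSO replicate 1 and DMSO-only genes 835 without DMSO replicate 2.

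Signal strength within the common map was compared by the highest narrow peak fold of each region. A narrow peak was present in each library for 10158 of the 12723 regions, and log2 fold was centred on the median of each library. Median fold over the common map was 9.58 and 9.42 in siCtrl and 6.94 and 6.68 in DMSO, so the scale was narrower in the shallower libraries, and the part of this in the calls was not tested. In limma with Benjamini-Hochberg adjustment, 377 regions (3.71%) passed an adjusted p of 0.05, 197 higher in siCtrl (1.94%) and 180 higher in DMSO (1.77%). The calls depended on the measure: the mean fold of the narrow peaks in a region gave 0 at an adjusted p of 0.05 and 1544 at an unadjusted p of 0.05, where the highest fold gave 1955. Calls numbered 61 and 42 without siCtrl replicates 1 and 2, and 147 and 107 without DMSO replicates 1 and 2. In each of these fits 1 control has a single library, which is assumed to vary like the libraries of the other control. The summed island score gave 4022 calls, and the sign of the difference was the same by score in 181 of the 197 and 148 of the 180.

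The regions called in each direction differed in kind along the same line as the region classes. Those higher in DMSO were at promoters in 41.7% of cases, overlapped H3K27me3 in both siCtrl libraries in 29.4%, and had a median GC of 55.9% and width of 7000 bp. Those higher in siCtrl were at promoters in 15.7%, overlapped H3K27me3 in 1.02%, and had a GC of 46.8% and a width of 4400 bp. Regions not called lay between, at 28.0%, 6.58% and 51.0%. In the treated libraries, which the fit did not use, fold was higher after siKDM6B33 than after GSK-J4 in 107 of 173 regions (61.8%) higher in siCtrl. It was lower in 116 of 158 (73.4%) of those higher in DMSO, compared with 53.2% of the regions not called. Part of the difference was thus also seen between the treated arms of the 2 experiments.

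The largest difference in favour of siCtrl was at an intergenic region whose nearest start was that of REG3G, a lectin gene (chr2:79228601-79234600). The fold was 27.9 and 19.3 in siCtrl and 5.50 and 4.06 in DMSO, a centred log2 difference of 1.76 ± 0.23 (SE, limma adjusted p = 4.46e-06). It was 23.47 and 25.05 after siKDM6B33 and 4.22 and 4.20 after GSK-J4, so the 4 libraries of the knockdown experiment stood above the 4 of the compound experiment. An intron of AGBL4 (chr1:49119001-49123400) gave 16.1 and 17.5 against 4.29 and 3.41 (log2 difference 1.60 ± 0.25 SE, limma adjusted p = 0.000111). The region near SCN3B, a sodium channel subunit gene, gave 23.3 and 19.2 against 6.99 and 4.30. Others of the top 10 lay in or near CDK8, XKR6, MARCHF4, DLG5, ATP6V1B2 and IGF1R, with centred log2 differences of 1.17 to 1.29. At IGF1R, the insulin-like growth factor receptor, the sign turned when the summed score was used.

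The largest difference in favour of DMSO lay on chromosome 1 (chr1:568601-570200) in a region where 64.8% of its 25-base words also occur in the mitochondrial genome, so its reads and those of mitochondrial DNA may not be separable. Its fold was 22.3 and 23.9 in siCtrl and 62.8 and 66.6 in DMSO. None of the other 19 top regions of this test held such words. PAX3 gave 5.31 and 3.39 in siCtrl and 6.11 and 8.69 in DMSO, a centred log2 difference of -1.32 ± 0.28 (SE, limma adjusted p = 0.00563), and H3K27me3 islands covered its 22.6-kb region (chr2:223155201-223177800) fully in each control library of that mark. JAG1, a Notch ligand, gave 5.69 and 4.92 against 8.34 and 8.43 (log2 difference -1.20 ± 0.26 SE, limma adjusted p = 0.00600). DLX2, RSPO3, POU4F2 and BMP6, genes of developmental factors and signals, were likewise under H3K27me3 over 89.8% or more of their regions. The region of MBNL2, a splicing factor gene, overlapped no H3K27me3 island in siCtrl cells and was covered over 88.1% and 83.3% in DMSO cells.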

How the data were processed

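H3K4me1 and H3K27me3 CUT&Tag libraries of BE2C cells were grouped by the sample titles. Per the submitters' processing notes, reads were trimmed with Trim Galore 0.4.4, aligned to hg19 with BWA 0.7.12 and processed with Picard 1.65, SAMtools 1.3.1 and bedtools 2.25.0. Broad islands were called by the authors with SICER 1.1 and narrow peaks with MACS2, library by library. The deposited island score is the caller's sum over windows of 200 bp and rises with width and depth. The deposited narrow peak fold is the ratio of summit to local background in the same library, given with its −log10 p and q by the authors. The lists hold no reads per region. The study scaled libraries by E. coli reads, and the scaling factors were not used here.

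Islands were merged where they overlapped, and genes and 55869 starts of protein-coding transcripts came from GRCh37 with GENCODE 44. Coordinates are 1-based. Fold and −log10 p together gave the summit pileup and background of 99.99% or more of the peaks within 1% of −log10 p. Median summit pileup was 7 and 6 tags in siCtrl and 5 and 5 in DMSO, which limits weak regions. Library values were compared by exact permutation. Log2 of the highest fold was tested with limma 3.58.1 (trend) in R 4.3.3, because reads were not at hand for the voom model of the study. Tables and sequences were handled with pandas 2.3.3, NumPy 2.4.6 and pysam 0.24.0 under Python 3.11.15, tests with SciPy 1.17.1 and plots with matplotlib 3.10.9. Scripts were tested on simulated data.

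Genes named were members of fixed lists with the highest or lowest coverage or without overlap between the controls, and the 10 top regions of each class and of each limma direction. The summit sequences, the mitochondrial comparison, RIGI for the older symbol DDX58, the genes with the most distal regions, and list members at 0% in every control were added after values were seen. Members and lists were chosen with earlier results of these data known. Alternatives were joined islands, islands of 2 kb or more, equal island number, equal covered length, narrow peaks, coverage of at least 50% of a region, other gene windows, other fold measures and normalization, a replicate block, and each library left out. H3K27me3 narrow peaks were not used. Same-numbered replicates did not deviate together (correlation 0.0072 over 10158 regions), so the numbers were not taken as pairs. Values of a few genes are not reported here, and counts over lists include them.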

Additional observations from a re-analysis of the deposited data

How the results depend on the processing

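Counts within 1.5 times of those reported under joined islands, islands of 2 kb or more and coverage of at least 50% of a region were 8668 to 11439 for all 4 libraries, 3064 to 4670 for siCtrl only and 655 to 855 for DMSO only. Equal number of islands gave 1941 siCtrl-only regions. Equal covered length gave 8180, 173 and 2988 regions, and 61 siCtrl-only and 1307 DMSO-only genes. Narrow peaks in place of islands gave 19244, 26525 and 2544. Without regions that overlap siCtrl H3K27me3, chosen after seeing the data, 192 DMSO-only regions were left by construction. Windows of 1 kb around starts gave 3478 genes in all 4. Leaving out each library gave 13236 to 14230, 4444 to 5079 and 1049 to 1849 regions, the last without DMSO replicate 2, and 6438 to 6830, 1099 to 1290 and 556 to 835 genes. The covered length differed by 27.9 Mb (23.1 to 32.8 with a library left out) and the distal share by 1.91 points (1.68 to 2.13), siCtrl higher throughout.

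For peak fold, limma calls numbered 220 among regions at or above the median fold (5079 tested), 4022 by summed score, 0 by mean fold, 332 after quantile normalization, 42 to 147 with a library left out, and 501 with a replicate block, which kept all 377. Opposite signs were found for the IGF1R region by score (-0.24, log2) and, as siCtrl minus DMSO coverage at equal covered length in percentage points, for KDM6B (-0.33), EYA1 (-0.87), DACH1 (-1.21) and SYT1 (-0.43). The causes were not tested. No other value turned its sign among named genes whose controls did not overlap. Changes of sign at genes whose controls overlapped, such as HAND1 and FOXD3, were not counted. Of the values not counted as turned, 309 stayed within the replicate spread and 59 moved beyond it. Among the 59, those of SCG3, CD44, HNF4A, SEMA3C, IDI1, IFIT3, MCM2 and KMT2D fell to 0 at equal covered length. That of DES did so without flanks. For named regions, 59 values kept their sign under the alternatives run.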
